A study of Mus musculus with 20 samples.

Results

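The epidermal growth factor (EGF) family was examined in scramble control (scr) and *Rnaseh2c* knockdown (sh4) Mvt1 cells and tumors. The 9 genes are the ligands *Epgn*, *Ereg*, *Areg*, *Btc*, *Hbegf* and *Tgfa* and the receptors *Egfr*, *Erbb2* and *Erbb3*. They were picked by symbol from 50667 Ensembl genes of the cell table and 20188 genes of the tumor table, with results of both comparisons already known. Because the choice used the scr to sh4 difference, the values of these 9 genes are given as a description and without p-values.

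Mvt1 is a mouse mammary carcinoma line of FVB background. Cells were transduced with a lentiviral scramble shRNA or with sh4, an shRNA against *Rnaseh2c*, which encodes a subunit of the RNase H2 enzyme, and both cell groups were grown under puromycin. Total RNA of 3 plates of scr and 3 plates of sh4 cells is given as FPKM, and RNA of small sections from 3 scr and 3 sh4 primary tumors as RPKM. Tumors had been taken 30 days after implantation into the mammary fat pad of female virgin FVB/nJ mice, which were about 6 weeks old when obtained and keep an intact immune system, and the tumors came from 3 experiments, each of which gave 1 scr and 1 sh4 tumor. One shRNA was profiled, so an effect of this hairpin on another transcript cannot be told apart from the knockdown. The plates are not stated to be separate transductions, so the spread between them may be technical. The other 8 of the 20 samples are exome libraries of lung metastases and were not used here.

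EGF family ligands are made as membrane-anchored precursors that proteases of the ADAM family shed from the cell surface. They bind EGFR or its relatives, which then pair, phosphorylate each other and signal through the RAS-ERK and PI3K-AKT pathways. ERBB2 has no known ligand of its own and serves as a preferred partner, and ERBB3 has a weak kinase and depends on its partners. In the mammary gland amphiregulin (*Areg*) acts downstream of estrogen in duct growth, and *Erbb2* is amplified in a part of human breast cancers. *Epgn* encodes epigen, a low-affinity EGFR ligand known mainly from skin.

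*Epgn*, *Ereg*, *Areg* and *Btc* share one cluster. In mm9, *Epgn* lies at chr5:91456490-91464241, *Ereg* at chr5:91503643-91522675 and *Areg* at chr5:91568641-91577458, all on the plus strand. *Btc* lies at chr5:91786287-91831939 on the minus strand, where it overlaps the pseudogene *Gm15710* on the same strand. From *Epgn* to *Btc* the cluster spans 375 kb, with 0 other protein-coding genes between them in GENCODE vM1. *Egfr* lies at chr11:16652206-16818161 and *Erbb2* at chr11:98273784-98299030, both on the plus strand and both overlapping annotated genes of the minus strand. *Tgfa* is on chromosome 6 and *Erbb3* on chromosome 10. Strand use in the counting is not given in the sources used here, so reads of overlapping genes could be shared.

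*Epgn* and *Areg* differed in opposite directions in cells and in the same direction in tumors, so the promoters of both are shown first. Both are RefSeq windows on GRCm38.p6 of 300 bases, from 250 bases before to 50 bases after the start of the gene, at chr5:91027267-91027566 for *Epgn* and chr5:91139349-91139648 for *Areg*, plus strand. Capitals mark exact matches to the motifs searched.
Epgn promoter: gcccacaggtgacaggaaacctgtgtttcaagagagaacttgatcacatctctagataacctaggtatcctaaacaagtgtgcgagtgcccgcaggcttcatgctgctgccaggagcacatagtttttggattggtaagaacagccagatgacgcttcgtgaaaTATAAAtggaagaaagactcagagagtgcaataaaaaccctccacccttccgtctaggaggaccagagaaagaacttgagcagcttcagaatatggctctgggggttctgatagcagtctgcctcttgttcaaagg
Areg promoter: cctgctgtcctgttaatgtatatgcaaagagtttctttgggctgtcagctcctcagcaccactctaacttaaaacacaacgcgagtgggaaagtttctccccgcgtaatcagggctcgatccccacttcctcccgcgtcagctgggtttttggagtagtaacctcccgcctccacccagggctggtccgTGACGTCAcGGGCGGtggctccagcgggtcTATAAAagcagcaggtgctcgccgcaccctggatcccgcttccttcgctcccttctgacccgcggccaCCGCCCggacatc
The motifs were searched on both strands. The *Areg* window holds the cyclic AMP response element TGACGTCA 61 bases before the start, a TATAAA box 31 bases before it, and the GC box GGGCGG at 52 bases before it and, on the minus strand, 38 bases after it. The *Epgn* window holds a TATAAA 86 bases before the start and 0 of the other motifs. Among 32851 RefSeq promoters of the same length, TGACGTCA is found in 1.79%, TATAAA in 13.6% and GGGCGG in 35.7%. The AP-1 motif TGANTCA (7.81% of promoters) and the E-box CACGTG (7.15%) match in neither window. Windows of *Btc*, *Tgfa*, *Egfr* and *Erbb2* were also read, making 6 of the 9 genes matched. GC boxes occur in the *Tgfa* window at 126 and, on the minus strand, 15 bases before the start, and in the *Egfr* window on the minus strand 9 bases before it. Such matches describe the letters of the window and were not tested as sites.

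Before the members, the libraries were checked against their labels. *Rnaseh2c* was at 5.83, 7.06 and 5.34 FPKM in scr cells and 3.19, 5.36 and 4.28 FPKM in sh4 cells, a mean of 70.3% of scr, with 1 sh4 plate overlapping the scr range. In tumors it was at 26.9, 52.0 and 25.9 RPKM in scr and 10.2, 22.4 and 19.8 RPKM in sh4, without overlap. In the cells 3 of 12 mammary epithelial markers had a mean of at least 1 FPKM, with *Krt8* and *Krt18* far the highest, while 7 were under 0.1, among them *Epcam* and *Cdh1*. Defining markers of fibroblasts, endothelium and fat were near 0 in the cells. All 6 tumors carried RNA of leukocytes, fibroblasts and endothelium, with marker sums that overlapped between the groups. Single markers did move with the groups. The T cell gene *Cd3g* was at 5.67 to 10.8 RPKM in scr and 16.7 to 32.8 RPKM in sh4 tumors and the endothelial gene *Emcn* at 2.27 to 3.85 and 5.48 to 8.92 RPKM. The other listed T cell gene, *Cd3e*, overlapped at 0.732 to 1.55 and 1.33 to 3.05 RPKM. Of the 9 leukocyte markers found, 3 had a higher and 6 a lower mean log2 value in sh4 tumors. Of the endothelial markers 5 of 5 had a higher and of the adipocyte markers 5 of 5 a lower mean in sh4 tumors. Their part in the tumor results was not tested. In bulk tumor RNA, fewer cells of a type and less RNA per cell cannot be told apart. The read depth behind both tables is unknown, so precision rests on the spread between libraries. Differences are on the scale of log2(value + 0.5), sh4 minus scr, which understates those of low genes, and standard errors (SE) come from a limma fit over all genes. The tables were normalized separately, so cells and tumors were compared by no test.

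*Epgn* was the ligand with the largest difference between the cell groups and the only one lower without overlap in sh4. It was at 4.43, 4.59 and 4.60 FPKM in scr cells and 1.95, 2.12 and 1.76 FPKM in sh4 cells. Each sh4 plate was thus well below the lowest scr plate. The means were 4.54 ± 0.0974 and 1.95 ± 0.183 FPKM (SD, n = 3), which puts sh4 at 42.9% of scr, with a log2 difference of -1.05 (SE 0.07). Among 21106 genes tested, 103 (0.488%) had a difference at least as large in size. As the members were chosen with this comparison known, that share is a description only. With any 1 plate left out the log2 difference of *Epgn* stayed between -1.10 and -0.99. In the cells short transcripts stood slightly higher against long ones in sh4, with a length index of -0.06 to -0.01 in scr and 0.01 to 0.05 in sh4 libraries. With this index as a covariate the log2 difference of *Epgn* was -1.18 (SE 0.11) and the gene was no longer called. The keratinocyte, leukocyte and fibroblast marker sums also lay lower in sh4 cells, while those of endothelium, fat and muscle overlapped. The keratinocyte markers, of which *Krt1*, *Krt15* and *Krtdap* were at 0 in all libraries and 0 of the 7 listed had a mean of at least 1 FPKM, summed to 1.03 to 1.19 FPKM in scr and 0.732 to 0.823 FPKM in sh4. The leukocyte markers, 2 of 9 with a mean of at least 1 FPKM and *Cd3e*, *Cd3g* and *Emr1* at 0, summed to 14.8 to 17.3 and 13.1 to 14.6 FPKM, and the fibroblast markers, 0 of 8 with such a mean, to 0.336 to 0.412 and 0.287 to 0.328 FPKM. Most of the keratinocyte sum came from *Krt10*, of the leukocyte sum from *Cd68* and of the fibroblast sum from *Pdgfra*. The part of these sums in the *Epgn* difference was not tested.

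**Figure D1:**
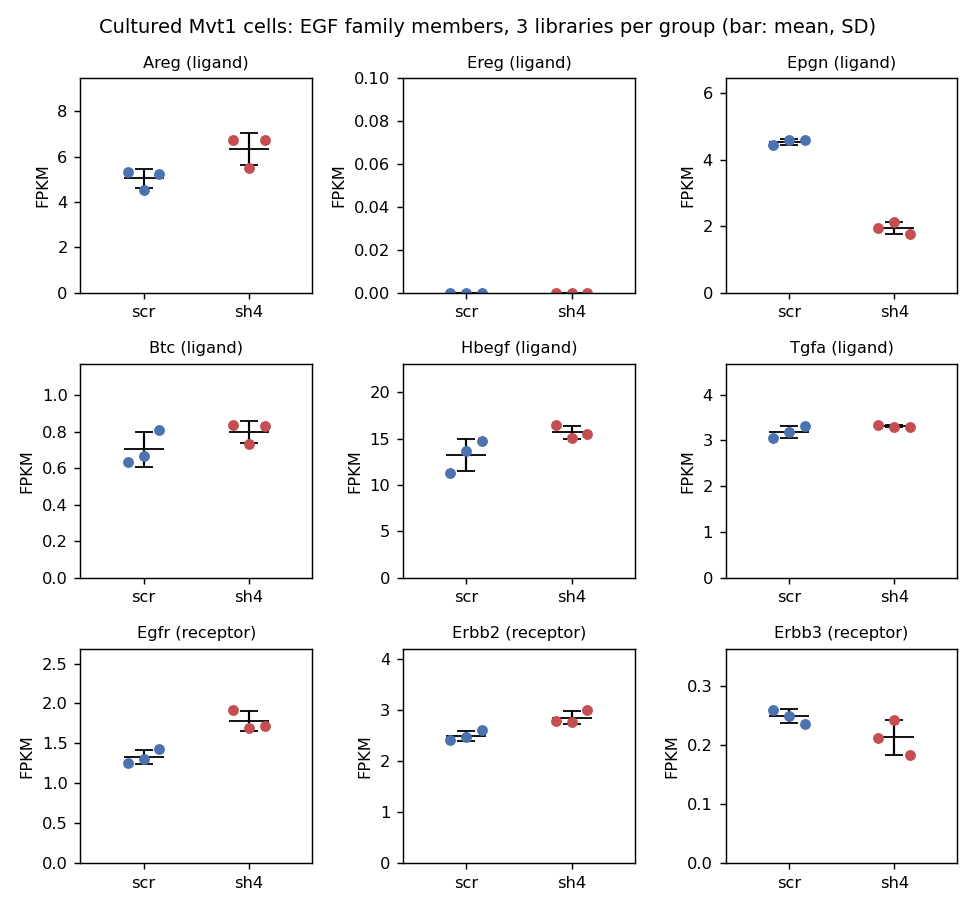
FPKM (y axis, from 0) of each EGF family member in the 3 scr (blue) and 3 sh4 (red) plates of cultured Mvt1 cells; points are libraries and bars the mean with SD. The 3 sh4 points of Epgn, at 1.76 to 2.12 FPKM, sit below its scr points at 4.43 to 4.60 FPKM, while those of Areg, Hbegf, Egfr and Erbb2 sit above their scr points.

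The other ligands did not share that direction. *Areg*, the neighbor of *Epgn*, was at 5.33, 4.54 and 5.23 FPKM in scr and 6.75, 5.51 and 6.75 FPKM in sh4 cells. Every sh4 plate was above every scr plate, with means of 5.04 ± 0.429 and 6.34 ± 0.717 FPKM (SD, n = 3) and a log2 difference of 0.30 (SE 0.10), or 0.46 with the length index as a covariate. *Hbegf*, a heparin-binding ligand that also binds ERBB4, was at 11.3, 13.7 and 14.8 FPKM in scr and 16.5, 15.1 and 15.5 FPKM in sh4. These groups did not overlap either, with a log2 difference of 0.24 (SE 0.10), but the difference was 0.14 without scr plate 1 and -0.01 with the length index as a covariate. *Tgfa*, the transforming growth factor α gene, overlapped between the groups at 3.05 to 3.32 FPKM in scr and 3.29 to 3.34 FPKM in sh4 (log2 difference 0.05, SE 0.06, and -0.01 with the length index). *Btc*, which encodes betacellulin, overlapped as well at 0.631 to 0.809 and 0.730 to 0.837 FPKM (0.11, SE 0.09, and 0.05 to 0.18 over the alternatives). Since *Gm15710*, at 104 to 129 FPKM, covers *Btc* on its strand, the level of *Btc* is uncertain. *Ereg*, which encodes epiregulin, was listed at 0 in all 6 cell libraries.

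Both main receptors stood slightly higher in sh4 cells. *Egfr* was at 1.25, 1.30 and 1.43 FPKM in scr and 1.92, 1.70 and 1.72 FPKM in sh4, which is 134% of the scr mean and a log2 difference of 0.32 (SE 0.08), or 0.20 (SE 0.13) with the length index as a covariate. *Erbb2* was at 2.41, 2.47 and 2.60 FPKM in scr and 2.79, 2.77 and 3.00 FPKM in sh4 (0.16, SE 0.06). Neither gene overlapped between the groups. *Erbb3* was low in both, at 0.236 to 0.260 FPKM in scr and 0.184 to 0.243 FPKM in sh4, and overlapped (-0.07, SE 0.08).

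Of the 9 members 8 passed the filter on low values in cells, and limma called 1 of them, *Epgn*. The call was lost with the plate number as a block, with the length index and without scr plate 2, scr plate 3 or sh4 plate 1. Over all genes tested 1.28% were called, 0.521% as higher and 0.758% as lower in sh4. In 5 members the groups did not overlap, 4 with sh4 above and 1 with sh4 below, where 27.5% of all genes tested showed no overlap, 13.6% above and 13.8% below. As the members were chosen with this comparison known, nothing is read from these shares. The median log2 difference of the 8 members was 0.14, against -0.002 over all genes.

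**Figure D2:**
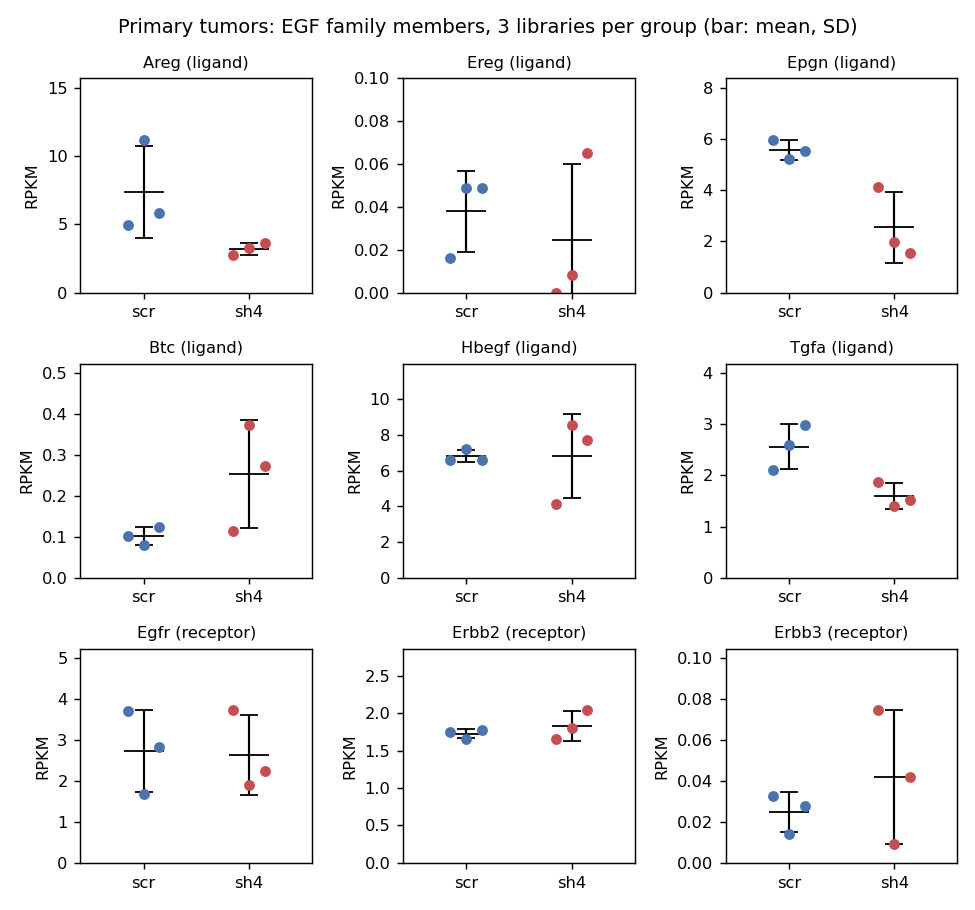
RPKM (y axis, from 0) of each EGF family member in the 3 scr (blue) and 3 sh4 (red) primary tumors; points are tumors, in the order of experiments 1 to 3 within a group, and bars the mean with SD. Epgn, Areg and Tgfa are lower in each sh4 tumor than in any scr tumor, and the 4.11 RPKM of Epgn in the sh4 tumor of experiment 1 sits nearest to the scr range.

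In the tumors 3 ligands were lower with sh4. *Epgn* was at 5.97, 5.22 and 5.54 RPKM in the scr tumors of experiments 1 to 3 and 4.11, 1.96 and 1.56 RPKM in the sh4 tumors. The sh4 tumor of experiment 1 lay nearest to the scr tumors, and no values overlapped. The means were 5.57 ± 0.379 and 2.55 ± 1.37 RPKM (SD, n = 3), with sh4 at 45.7% of scr and a log2 difference of -1.08 (SE 0.31). Within experiments 1, 2 and 3 the difference was -0.49, -1.21 and -1.55, and without the sh4 tumor of experiment 1 it was -1.43. Of 13487 genes tested in tumors, 117 (0.868%) differed at least as much in size. Here too the share is a description only, for the same reason as in the cells.

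*Areg* was lower in sh4 tumors, opposite to its direction in the cells. It was at 4.98, 11.2 and 5.85 RPKM in scr and 2.78, 3.25 and 3.63 RPKM in sh4 tumors. The scr tumor of experiment 2 was far above the others, and all sh4 tumors were below all scr tumors. The means were 7.35 ± 3.38 and 3.22 ± 0.428 RPKM (SD, n = 3), a log2 difference of -1.00 (SE 0.31) that was -0.67 without the scr tumor of experiment 2. That tumor also stood apart in fat and keratin RNA. Its 5 adipocyte markers summed to 1666 RPKM, against 23.6 to 227 RPKM in the other tumors, and its epithelial markers to 1108 RPKM, against 417 to 747 RPKM. Nearly all of that epithelial sum was *Krt8* and *Krt18*, at 1090 RPKM together. Other epithelial markers went both ways, with *Krt19* highest (11.0 RPKM) and *Cdh1* lowest (0.533 RPKM) in this tumor. Its length index was 0.24, against -0.18 and -0.28 in the other scr tumors and -0.31, 0.36 and 0.05 in the sh4 tumors. This spread is wider than in the cells, and with the index as a covariate the tumor differences were -1.11 for *Areg* and -0.98 for *Epgn*. Within experiments the *Areg* difference was -0.74, -1.64 and -0.62.

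*Tgfa* was at 2.10, 2.59 and 2.99 RPKM in scr and 1.88, 1.41 and 1.51 RPKM in sh4 tumors. The groups did not overlap, though the tumors of experiment 1 lay close together. Its log2 difference was -0.54 (SE 0.21), and -0.13, -0.70 and -0.79 within experiments. *Epgn*, *Areg* and *Tgfa* were therefore each lower in 3 of 3 experiments. With 1 scr and 1 sh4 tumor per experiment, a block for the experiment number cannot change these differences.

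The remaining ligands overlapped in the tumors. *Hbegf* was at 6.59, 7.22 and 6.62 RPKM in scr and 4.16, 8.57 and 7.74 RPKM in sh4. Its sh4 values lay on both sides of the scr values, and the log2 difference of -0.05 (SE 0.28) turned to 0.24 without the sh4 tumor of experiment 1. *Btc* was at 0.102, 0.0792 and 0.124 RPKM in scr and 0.113, 0.373 and 0.271 RPKM in sh4 (0.31, SE 0.16, and 0.19 without the sh4 tumor of experiment 2). It was higher with sh4 in 3 of 3 experiments from a low level. *Ereg* was at most 0.0651 RPKM in any tumor and was not tested.

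The receptors also overlapped in the tumors. *Egfr* was at 3.70, 1.68 and 2.82 RPKM in scr and 3.74, 1.90 and 2.26 RPKM in sh4, a log2 difference of -0.04 (SE 0.32). Within experiments the difference was 0.01, 0.14 and -0.27, while the SE also holds spread between experiments. The lowest value in both groups was that of experiment 2, whose tumors had the highest length index of their group (0.24 and 0.36). With the index as a covariate the *Egfr* difference was 0.10. The part of experiment and of length bias was not tested. The sign of the *Egfr* difference turned under 7 of 15 alternatives, the length index included. *Erbb2* was at 1.75, 1.66 and 1.77 RPKM in scr and 1.65, 1.80 and 2.04 RPKM in sh4 (0.06, SE 0.19), and was at -0.001 without the sh4 tumor of experiment 3. *Erbb3* was at 0.0094 to 0.0748 RPKM and was not tested.

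**Figure D3:**
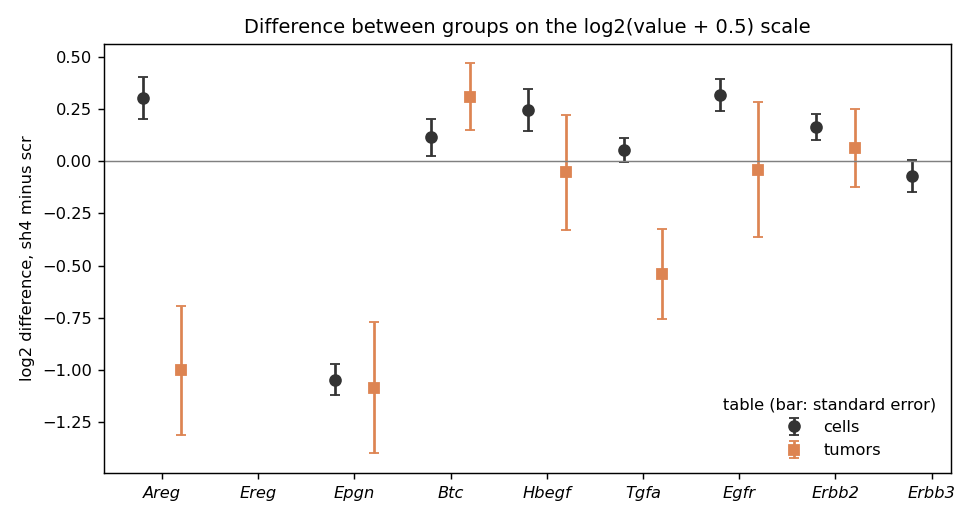
Log2 difference (y axis, sh4 minus scr, on the log2(value + 0.5) scale) of each member in cells (circles) and tumors (squares); bars are standard errors, and members under the filter on low values have no point. Epgn is near -1 in both, while Areg is at 0.30 in cells and -1.00 in tumors.

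Of the 9 members 7 passed the filter in tumors, and limma called 0 of 7, as it called 0.0% of all 13487 genes (291 higher and 273 lower at an unadjusted p under 0.05). In 3 of the 9 the groups did not overlap, all with sh4 below. Over all genes tested this held for 9.17%, with 4.19% above and 4.98% below, and nothing is read from the comparison of the shares. The median log2 difference of the 7 tested members was -0.05, against -0.04 over all genes.

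Ratios within a library, which do not depend on how the table was scaled, showed how the ligands shifted against each other. In cells the log2 ratio of *Epgn* to *Areg* was -0.27, 0.01 and -0.19 in scr and -1.79, -1.37 and -1.94 in sh4. From near equal levels *Epgn* thus came to stand well under *Areg*. The log2 ratios of *Areg* to *Hbegf*, to *Tgfa* and to the sum of *Krt8* and *Krt18* overlapped between the cell groups. Their mean differences, sh4 minus scr, were 0.07, 0.27 and 0.31. The share of *Areg* in the ligand sum overlapped as well. The share of *Epgn* in the summed FPKM of the 6 ligands was 17.0% ± 0.944 in scr and 6.94% ± 0.880 in sh4 cells (SD, n = 3), and that of *Hbegf* was 49.5% ± 3.22 and 55.9% ± 0.719. The sum itself overlapped between the cell groups, at 26.7 ± 1.99 and 28.1 ± 1.30 FPKM.

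In tumors the sum of the 6 ligands was 19.8, 26.4 and 21.2 RPKM in scr and 13.0, 15.6 and 14.8 RPKM in sh4. The ligand total was thus lower in each sh4 tumor, at 14.5 ± 1.30 against 22.4 ± 3.48 RPKM (SD, n = 3), while the sum of the 3 receptors overlapped at 4.49 ± 1.07 and 4.51 ± 0.886 RPKM. *Epgn* and *Areg* kept no clear ratio to each other there. Their log2 ratio was 0.26, -1.10 and -0.08 in scr and 0.57, -0.73 and -1.22 in sh4 tumors.

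Tumor ligand levels were also set against *Krt8* and *Krt18*, the abundant keratins of the cultured line, as a measure of epithelial RNA in the section. The keratin sum itself overlapped between groups, at 582 to 1090 RPKM in scr and 409 to 736 RPKM in sh4 tumors. The log2 ratio of *Areg* to this sum was -6.88, -6.60 and -6.64 in scr and -7.20, -7.83 and -7.60 in sh4, without overlap. That of *Epgn* was -6.61, -7.71 and -6.72 in scr and -6.63, -8.55 and -8.82 in sh4. Relative to keratin, *Epgn* was thus nearly equal in the tumors of experiment 1 and lower with sh4 in experiments 2 and 3, and the groups overlapped. *Tgfa* overlapped on this measure too, at -8.72 to -7.61 and -9.03 to -7.77. The part of tumor makeup in the ligand differences was not tested.

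The order of levels, per transcript length, placed *Hbegf* first in scr cells, followed by *Areg* and *Epgn*, whose ranges overlapped, then *Tgfa*, *Erbb2*, *Egfr*, *Btc*, *Erbb3* and *Ereg*, each apart from the next. In sh4 cells *Epgn* came after *Tgfa* and *Erbb2* and overlapped with *Egfr*. In scr tumors *Areg* and *Hbegf* overlapped at the top, *Epgn* followed, apart from *Hbegf* but within the wide range of *Areg*, and *Egfr* and *Tgfa* came next with overlapping ranges. In sh4 tumors *Hbegf* stood alone at the top, and from *Areg* through *Egfr*, *Epgn*, *Erbb2* and *Tgfa* each range overlapped the next. *Erbb2* exceeded *Egfr* in all 6 cell libraries, with log2 ratios of *Egfr* to *Erbb2* from -0.95 to -0.54. In the tumors *Egfr* was the higher of both, at 0.02 to 1.18.

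The genes around the cluster were read to see whether the difference of *Epgn* extended along chromosome 5. The window reached 500 kb beyond *Epgn* and *Btc* and holds 16 other annotated genes, among them a group of CXC chemokine genes that attract neutrophils or are stored in platelets. In cells 9 of the 16 could be tested and limma called 0 (1 higher and 1 lower at an unadjusted p under 0.05), with a median log2 difference of -0.06. *Mthfd2l*, a mitochondrial folate enzyme gene ending just before *Epgn*, was at 2.62, 2.88 and 2.67 FPKM in scr and 3.28, 3.03 and 3.19 FPKM in sh4 cells. Its values thus stood opposite to those of *Epgn*, with a log2 difference of 0.19 (SE 0.06, limma adjusted p = 0.195). The chemokine gene *Cxcl5*, whose left end lies at -268 kb from that of *Epgn*, had a log2 difference of -0.28 (adjusted p = 0.235). Both were named after their values were seen. *Gm15710* had the highest level in the window and a log2 difference of -0.0002.

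In tumors 10 of the 16 were tested, with 9 negative and 1 positive difference and 0 called (1 lower at an unadjusted p under 0.05), and the median was -0.31 against -0.04 over all genes. Of all genes tested in tumors, 7747 of 13487 were negative. *Pf4*, the platelet factor 4 gene and the highest of the window, was at 54.8, 84.4 and 40.8 RPKM in scr and 37.7, 37.5 and 36.9 RPKM in sh4 tumors. All sh4 values were below the scr values, and its log2 difference was -0.61 (-0.34 without the scr tumor of experiment 2).

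**Figure D4:**
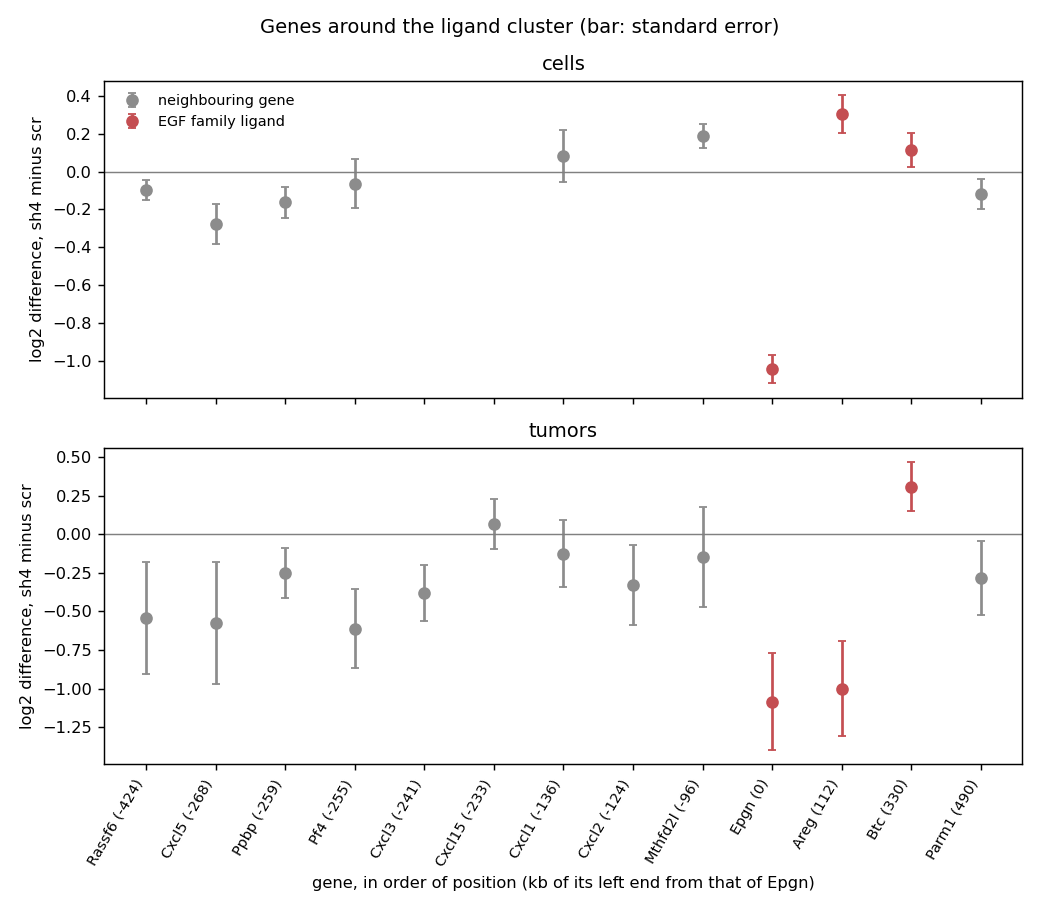
Log2 difference (y axis, sh4 minus scr) of genes within 500 kb of the ligand cluster on chromosome 5, in order of position (x axis, with the distance of each gene's left end from that of Epgn in kb), in cells (top) and tumors (bottom); bars are standard errors, ligands are red and neighbors grey. In cells Epgn at -1.05 stands alone below its neighbors, and in tumors both Epgn and Areg lie near -1. Gm15710 and 5S_rRNA, both tested in cells, are not drawn.

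Genes whose log2 profile over the 6 cell libraries lay nearest to that of *Epgn* were sought among 12307 genes by Euclidean distance. The nearest were *Cd82* (distance 0.13), which encodes a tetraspanin, *Tpd52l1* (0.18), *Gm20489* (0.21), *AW112010* (0.22) and *Ang5* (0.23), which encodes a ribonuclease of the angiogenin family. *Cd82* was at 4.63, 4.71 and 4.37 FPKM in scr and 2.09, 2.05 and 1.83 FPKM in sh4 cells. Its level was thus also near that of *Epgn*, while a like difference follows from how these genes were sought.

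Other genes of the ErbB pathway were taken from 6 lists including the chromosome 5 window, with 78 genes tested in cells and 82 in tumors. In cells limma called 1 of the 78, as higher, a share that equals the 1.28% called over all genes, and in tumors 0 of 82. At an unadjusted p under 0.05, 9.55% of all genes tested were higher and 9.33% lower in sh4 cells, and 2.16% were higher and 2.02% lower in sh4 tumors. Among 6 other ErbB ligands and receptors 3 were tested in cells and 2 in tumors. *Egf*, the founding ligand, was at 0.272, 0.160 and 0.171 FPKM in scr and 0.0874 to 0.103 FPKM in sh4 cells (log2 difference -0.23, limma adjusted p = 0.253). It was low throughout, with sh4 below scr, and the difference was -0.60 with a pseudocount of 0.1 and -0.09 with the length index as a covariate. The neuregulin gene *Nrg1*, a ligand of ERBB3 and ERBB4, was at 0.0805 to 0.130 and 0.162 to 0.223 FPKM (0.19, adjusted p = 0.292, and 0.49 with a pseudocount of 0.1). In tumors *Nrg4*, an ERBB4 ligand, was at 3.35 to 3.97 RPKM in scr and 2.79 to 3.23 RPKM in sh4 (-0.25, limma adjusted p = 0.995).

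Genes of ligand shedding had 0 of 7 calls in cells and 0 of 10 in tumors by limma, with 0 at an unadjusted p under 0.05 in either, and medians of -0.01 and -0.06. *Adam10*, a sheddase of several EGF family ligands, was at 20.9 to 24.5 FPKM in scr and 22.7 to 24.0 FPKM in sh4 cells. These ranges overlapped, with a log2 difference of 0.02. *Rhbdf2*, the iRhom2 gene, which brings the protease ADAM17 to the cell surface, was at 4.90, 5.51 and 5.36 FPKM in scr and 4.82, 4.29 and 4.77 FPKM in sh4 cells (-0.17, limma adjusted p = 0.277).

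The receptor signaling cascade from adaptors to ERK and AKT had 0 of 24 calls by limma in each table. In cells 11 differences were positive and 13 negative, with a median of -0.03, and 1 gene in each direction had an unadjusted p under 0.05. These were *Akt1*, a kinase of survival signaling (log2 difference 0.20, adjusted p = 0.255), and the RAF kinase *Araf* (-0.14, adjusted p = 0.260). With the length index as a covariate these were 0.003 and -0.28, and without scr plate 1 *Akt1* was at 0.12. In tumors 7 were positive and 17 negative, where 42.6% of all genes were positive. The median was -0.14, against -0.04 over all genes, and 2 were lower at an unadjusted p under 0.05. The adaptor *Shc1* was at 17.4, 14.5 and 16.8 RPKM in scr and 12.6, 7.69 and 12.2 RPKM in sh4 tumors (-0.59, limma adjusted p = 0.995, and -0.37 without the sh4 tumor of experiment 2). *Map2k1*, which encodes the ERK kinase MEK1, had a difference of -0.61 (adjusted p = 0.995), which was -0.36 without the sh4 tumor of experiment 2.

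Negative feedback and receptor turnover had 0 of 18 calls in cells, with 9 differences in each direction, a median of 0.02 and 2 genes lower at an unadjusted p under 0.05, where 9.33% of all genes were. *Lrig2*, which encodes a membrane protein of a family that acts on ErbB receptors, was at 2.17, 2.18 and 2.21 FPKM in scr and 1.76, 1.72 and 1.75 FPKM in sh4 cells. The plates of a group were close to each other, and the log2 difference of -0.26 had a limma adjusted p of 0.0916. *Cblb*, a ubiquitin ligase gene that serves receptor breakdown, had one of -0.29 (adjusted p = 0.193), which was -0.03 with the length index as a covariate. In tumors 16 of 19 were negative, with a median of -0.30 and 0 at an unadjusted p under 0.05. The ERK phosphatase gene *Dusp4* was at 2.81, 3.52 and 3.43 RPKM in scr and 1.75, 1.82 and 2.87 RPKM in sh4 tumors (-0.53, limma adjusted p = 0.995).

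Transcriptional targets of the ERK pathway were mostly positive in cells and mostly negative in tumors. In cells 14 of 17 were positive, with a median log2 difference of 0.12, and 7 were higher and 0 lower at an unadjusted p under 0.05, against 9.55% and 9.33% of all genes. *Jun*, an AP-1 transcription factor gene, was at 7.49, 8.70 and 9.05 FPKM in scr and 12.5, 12.8 and 13.1 FPKM in sh4 cells. It was the only gene of these lists that passed the test and rose with sh4, by 0.58 on the log2 scale (SE 0.08, limma adjusted p = 0.0362). The call was lost with the length index as a covariate (0.46) and with any 1 plate other than scr plate 1 left out. *Fosl1*, another AP-1 gene, was at 9.64, 9.18 and 10.0 FPKM in scr and 12.2, 12.0 and 12.6 FPKM in sh4 cells (0.33, limma adjusted p = 0.0501).

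In tumors 16 of 17 ERK targets were negative, with a median of -0.21, and 4 were lower and 0 higher at an unadjusted p under 0.05. Over all genes tested in tumors 42.6% were positive, against 49.6% in cells. *Ier3*, an early response gene, was at 27.4, 25.0 and 30.9 RPKM in scr and 10.6, 13.2 and 21.8 RPKM in sh4 tumors. The groups did not overlap, with a log2 difference of -0.90 (SE 0.27, limma adjusted p = 0.995). Of the genes named in the cells, *Fosl1* was at 3.35, 6.50 and 4.12 RPKM in scr and 3.03, 2.25 and 2.93 RPKM in sh4 tumors (-0.63), and *Jun* at 9.64, 12.3 and 12.8 RPKM and 7.76, 6.36 and 10.1 RPKM (-0.51). Both are thus on the other side of 0 from the cells, without passing the test in tumors. *Junb*, next to *Ier3* by smallest p in tumors, was lower with sh4 in both. Its log2 difference was -0.10 in cells, with overlap (limma adjusted p = 0.583). In tumors it was -0.69, without overlap (limma adjusted p = 0.995). As the tables cannot be fitted together, the difference between cells and tumors was not tested.

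**Figure D5:**
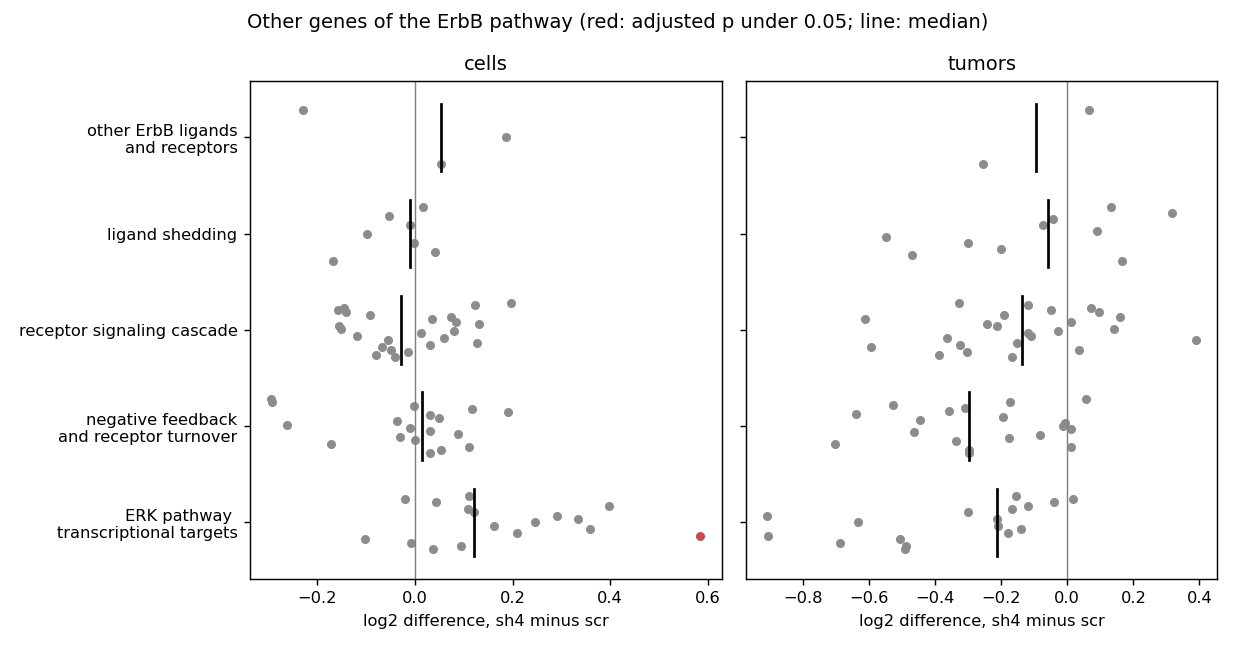
Log2 difference (x axis, sh4 minus scr) of each tested gene of 5 ErbB pathway lists in cells (left) and tumors (right); points are genes, lines the median of a list, and red marks an adjusted p under 0.05. The ERK target median is 0.12 in cells, with Jun the only red point, and -0.21 in tumors.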

How the data were processed

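The authors deposited the cell values as FPKM, in 290541 rows that mix Ensembl genes with 239874 assembled loci, which were left out. How the FPKM were computed is not given in the sources used here, and the processing notes name several tools without their roles. For the tumor RPKM values the authors trimmed HiSeq2500 mRNA reads with Trimmomatic, mapped them with Tophat (mm9, Ensembl v70 transcripts) and used Partek for analysis. Depth is unknown.

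Symbols and positions came from GENCODE vM1 (NCBIM37). Within each table, genes with a mean of at least 0.1 were compared as log2(value + 0.5) by limma 3.58.1 (R 4.3.3, eBayes with trend), with p-values adjusted over all genes by Benjamini-Hochberg and called under 0.05. The procedure was also run on simulated data with independent noise per gene and no length shift between groups. That run cannot speak to the length index, and its outcome is not used here. For the length index, the median deviation of long genes (over 4000 bases) was taken from that of short genes (under 1000 bases). Members and lists were chosen with earlier results of these data known. Named list genes were taken from those with the smallest p values and the highest mean of a list, with additions stated. Not all genes of that selection are shown, with *Ccnd1*, *Mapk3* and *Rnf41* among those left out. Tumor numbers pair the groups, as the labels give a shared experiment, and paired deviations correlated at 0.14, 0.33 and -0.12. The main fit nevertheless used no block, so SE and p-values given for tumors include spread between experiments. Cell plate numbers are not stated to mark anything shared, so the plates were treated as unpaired. Alternatives were other pseudocounts, filters and scalings, no trend, a replicate block, the length index and leaving out each library.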

Additional observations from a re-analysis of the deposited data

Results flagged for a closer look

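*Areg* stood on opposite sides in the 2 settings. In cultured cells each sh4 plate was above each scr plate, with a log2 difference of 0.30, and in primary tumors each sh4 tumor was below each scr tumor, with a log2 difference of -1.00. The difference between the settings was not tested, since the FPKM and RPKM tables were normalized separately. Without the scr tumor of experiment 2, which carried the most fat RNA, the tumor difference was -0.67. Relative to *Hbegf*, to *Tgfa* or to the keratin sum of the same library, *Areg* overlapped between the cell groups. In tumors it overlapped relative to *Tgfa*, but not relative to *Hbegf* or the keratin sum.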

How the results depend on the processing

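*Epgn* kept its direction under every alternative, from -1.18 to -0.91 on the log2 scale in cells and from -1.43 to -0.85 in tumors, as did *Areg* (0.24 to 0.46 and -1.22 to -0.67) and *Tgfa* in tumors (-0.65 to -0.44). Of these alternatives the replicate block, the filters and the fit without the trend cannot change a difference. The limma call of *Epgn* in cells was lost with the replicate block, with the length index and without scr plate 2, scr plate 3 or sh4 plate 1. *Egfr* joined it with quantile normalization.

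Over all genes, 110 higher and 160 lower calls in cells became 32 and 45 with no filter, 174 and 234 with a mean of at least 1, 545 and 678 with quantile normalization, 552 and 493 with median-ratio scaling, 53 and 118 without the trend, and 0 and 1 with the length index. The share called higher was thus 40.7%, against 52.8% with median-ratio scaling. Leaving out 1 plate gave 1 to 83 higher and 1 to 165 lower calls, with 1 and 1 without scr plate 3 and 83 and 165 without scr plate 1. The plate number as a replicate block gave 0 higher and 0 lower calls. Deviations of same-numbered plates correlated at -0.06, -0.08 and -0.07. Whether such plates share more than a number is not stated. Of the list genes 1 was called higher, against 0 with no filter, with the replicate block or with the length index, 3 with a mean of at least 1 and 4 with quantile normalization or median-ratio scaling, and 0 to 1 with a plate left out. Of these genes 0 were called lower, and 1 with quantile normalization. In tumors every alternative gave 0 calls, the experiment block included, with a smallest adjusted p from 0.126 to 1.00.

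Unknown depth, 3 libraries a group and 1 shRNA limit what these values show.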
